A study of Homo sapiens with 12 samples.

Results

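Transcript levels of 8 transcription regulators, grouped as targets of BMP and TGF-β signalling, were followed in HEK293T cells and in the methionine-independent clone R1. They are the inhibitors of DNA binding ID1, ID2, ID3 and ID4, the zinc-finger repressors SNAI1 and SNAI2, and the inhibitory SMADs SMAD6 and SMAD7. The genes were taken by symbol, and they account for 8 of the 23500 genes listed, of which 17162, all 8 members included, had a summed count of at least 10 and were tested. ID2 and SNAI2 were chosen by their measured rise in R1 cells when homocysteine replaced methionine. Their values in R1 cells are therefore a description without a test, as are the R1 responses of the other members. ID3 has 2 entries with the same count in every library, and 1 entry was used. If reads were shared between the entries, the level of ID3 given here holds only part of its reads.

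HEK293T is a line of human embryonic kidney cells that carries the SV40 large T antigen, and R1 is 1 clone derived from it that proliferates when methionine is replaced by its precursor homocysteine. Both were grown for 12 h in the same base medium without methionine, with dialysed serum, vitamin B12 and cysteine, to which either methionine (+Met) or L-homocysteine (−Met+Hcy) was added. There were 3 libraries in each of the 4 groups, with total counts of 12664158 to 18771349 each. The sources do not say whether the 3 came from separate cultures, so the tests measure the spread between these libraries, which may be technical. With 1 clone, methionine independence cannot be told apart from other differences of that clone from its parent. In bulk RNA, fewer cells of a type and less RNA per cell cannot be told apart either.

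BMP and TGF-β ligands bind paired type I and type II receptors, which phosphorylate receptor-regulated SMADs. These join SMAD4, enter the nucleus and act on target genes. The ID genes are among the best known direct targets of BMP signalling. ID proteins are helix-loop-helix factors without a DNA-binding region, and they hold E proteins in inactive dimers. SNAI1 and SNAI2 are repressors that bind E-boxes, and they are known for repressing the epithelial cadherin gene CDH1. SMAD6 and SMAD7 are induced by the pathway and block it, through the receptors and the other SMADs.

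Promoter windows of the 250 bases before the transcription start were available from RefSeq (GRCh38.p14) for 6 of the 8 members, with 3 starts for SMAD7 and thus 8 windows. SMAD proteins bind the SMAD box GTCT, which reads AGAC on the other strand, and BMP-activated SMADs also bind the GC-rich element GGCGCC. The 4 windows below overlap no annotated exon and are shown because ID3, ID4 and SMAD7 had separate groups in the HEK293T response described below, whereas SMAD6 had not. Capitals mark GTCT or AGAC. ID3 is at chr1:23559502-23559751 on the minus strand, ID4 at chr6:19837120-19837369 on the plus strand, SMAD6 at chr15:66701986-66702235 on the plus strand and SMAD7, at its most upstream start, at chr18:48950966-48951215 on the minus strand.
ID3: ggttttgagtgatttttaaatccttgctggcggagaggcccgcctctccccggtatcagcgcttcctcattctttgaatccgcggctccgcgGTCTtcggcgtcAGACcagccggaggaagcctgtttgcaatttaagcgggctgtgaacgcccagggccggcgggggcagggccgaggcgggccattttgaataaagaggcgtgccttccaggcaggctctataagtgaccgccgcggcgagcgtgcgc
ID4: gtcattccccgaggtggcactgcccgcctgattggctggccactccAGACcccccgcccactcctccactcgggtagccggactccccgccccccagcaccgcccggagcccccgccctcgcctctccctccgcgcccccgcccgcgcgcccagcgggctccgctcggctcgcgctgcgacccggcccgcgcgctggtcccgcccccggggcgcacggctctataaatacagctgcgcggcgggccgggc
SMAD6: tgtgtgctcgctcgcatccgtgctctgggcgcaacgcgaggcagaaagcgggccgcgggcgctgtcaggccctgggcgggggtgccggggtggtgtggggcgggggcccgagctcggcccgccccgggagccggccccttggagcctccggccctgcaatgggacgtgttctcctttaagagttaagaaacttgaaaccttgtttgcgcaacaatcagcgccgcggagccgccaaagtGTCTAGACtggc
SMAD7: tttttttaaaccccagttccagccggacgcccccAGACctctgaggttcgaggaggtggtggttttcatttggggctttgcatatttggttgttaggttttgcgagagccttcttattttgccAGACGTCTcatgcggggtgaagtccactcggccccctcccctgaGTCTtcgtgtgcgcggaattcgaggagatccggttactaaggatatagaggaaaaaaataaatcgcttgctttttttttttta
All 8 windows held at least 1 SMAD box, as did 77.5% of all 35116 promoter windows of this length. ID1 had 3, ID2 2, ID3 2, ID4 1, SMAD6 2 and the 3 starts of SMAD7 1, 5 and 4, against a median of 1 and a 95th percentile of 4 over all windows. In SMAD6 the 2 boxes lie side by side and form the palindrome GTCTAGAC, which starts 12 bases before the transcription start and which 0.182% of all windows held. That palindrome was looked for after the SMAD6 window had been read. GGCGCC was in none of the 8 windows and in 16.4% of all windows. The E-box CANNTG, which ID2, ID4 and 2 of the SMAD7 starts held, was in 61.8% of all windows, and its form CAGGTG, held by 1 SMAD7 start, was in 17.5%. Both strands were searched. A match is a run of letters and not a measured binding site.

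Before any comparison, R1 −Met+Hcy replicate 3 stood apart from the other libraries. The chi-square per gene between it and the other replicates of its group was 205 and 236, against 7.13 to 90.1 for all other pairs of replicates. Its deviation from the other 2 libraries of its group fell with GC content (Spearman's rho −0.74 across genes, which are not independent). In the other groups rho was −0.34 to 0.54. Replicates 1 and 2 of its own group had 0.60 and 0.73, but each was set against a mean that holds replicate 3. Leaving replicate 3 out lowered the common dispersion of the model from 0.109 to 0.0349. The values of the 8 genes are therefore given with and without this library, and for the genes of the signalling lists the calls without it are counted. Levels are given in CPM, counts scaled to a common library total, and fold changes are those of a model scaled by TMM. The column totals placed −Met+Hcy 0.29 above +Met in HEK293T cells and R1 0.35 above HEK293T in +Met on the log2 scale, relative to TMM, and by −0.04 to 0.02 in the other comparisons. Among markers of HEK293T cells, 5 of 7 had a mean of at least 1 CPM in HEK293T cells and 7 of 7 in R1 cells, PAX2 and LHX1 being under 1 CPM in HEK293T cells. The summed level of the list was 454 to 847 CPM in HEK293T and 530 to 958 CPM in R1 libraries. Of 7 markers of basal breast cells, the other cell type of the study, only EGFR reached a mean of 1 CPM, and KRT5, KRT6A and S100A8 were at 0 in all libraries. The sum of that list was 2.70 to 5.68 CPM in HEK293T and 8.20 to 19.1 CPM in R1 libraries.

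Levels of the 8 genes could be compared with each other only per length of the canonical transcript. In HEK293T cells in +Met, ID2 had the highest level, 110 CPM per kb. ID1 and ID3 followed at 36.6 and 36.5 CPM per kb, close to SNAI2 at 36.1 CPM per kb. SMAD6, SMAD7 and ID4 were at 6.96, 5.05 and 4.79 CPM per kb, and SNAI1 was at 0.296 CPM per kb. The order of ID1, ID3 and SNAI2, and that of SMAD7 and ID4, cannot be read, since their differences are smaller than the spread of the libraries. In HEK293T −Met+Hcy, SNAI2 came next after ID2, at 119 against 306 CPM per kb, and ID3 and ID1 followed at 81.4 and 68.6 CPM per kb. If reads were shared between the entries of ID3, as described above, its level is too low in both media. The place of ID3 relative to SNAI2 and ID1 in HEK293T cells then cannot be read. In R1 +Met, SNAI2, at 5.13 CPM per kb, was below ID2 (72.2), ID3 (21.8), ID1 (21.4) and SMAD6 (8.19 CPM per kb).

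**Figure D1:**
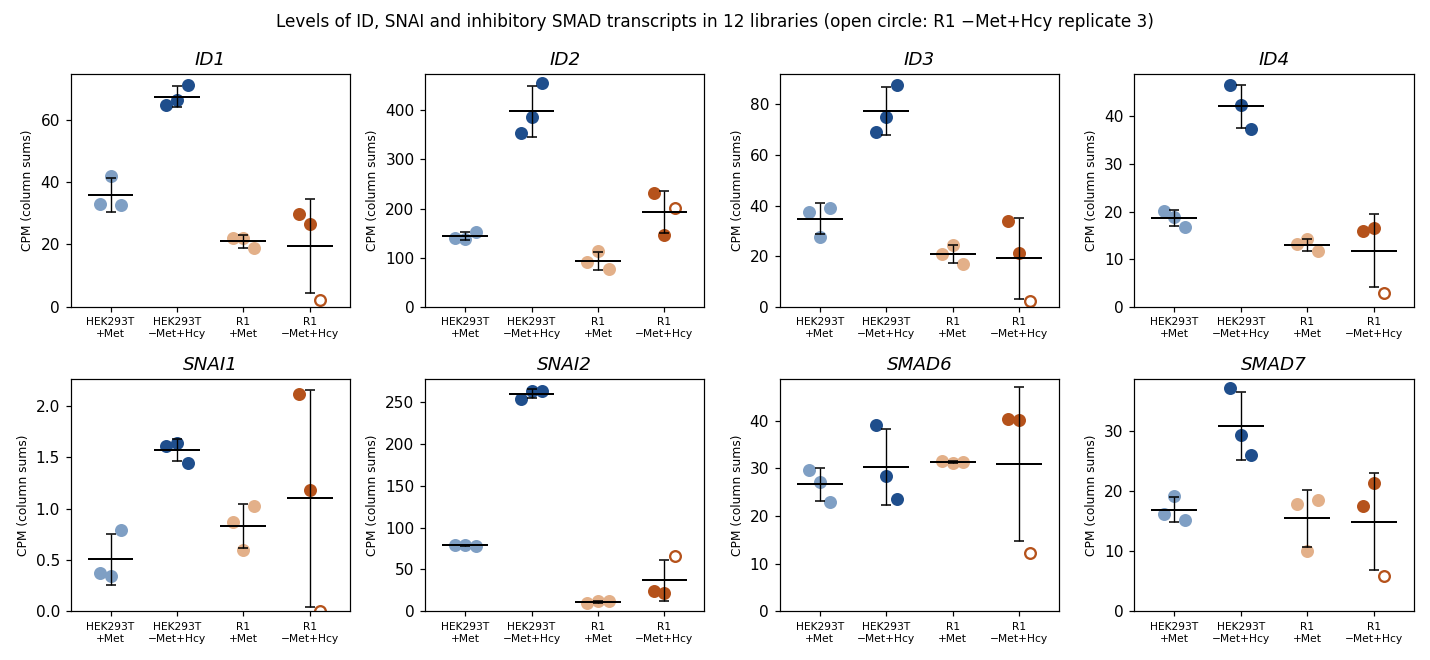
Level of each of the 8 genes in CPM by column totals (vertical axes, linear, starting at 0, 1 panel per gene) in the 4 groups (horizontal axis). Points are libraries, horizontal lines the mean and error bars the SD of 3 libraries, and the open circle is R1 −Met+Hcy replicate 3. In 7 of the 8 genes, all but SMAD6, the 3 HEK293T −Met+Hcy libraries lie above the 3 HEK293T +Met libraries. On the TMM scale this holds for the same 7 genes and for 24.7% of all genes tested. The share of all genes by column totals was not counted.

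The first comparison asked how HEK293T cells, which need methionine, changed when homocysteine replaced it. None of these libraries took part in the choice of ID2 and SNAI2. ID2 and SNAI2 rose, by 2.27-fold and 2.70-fold. They were the 2 of 8 members called as higher at an adjusted p under 0.05 and an absolute log2 fold change over 1, against 3.04% of all genes tested. Without R1 −Met+Hcy replicate 3, which is in neither group but enters the shared estimate of the spread, SNAI1 was called too, giving 3 of 8 against 6.76% of all genes. None of the 8 was called lower, against 1.59% and 3.56%. In 7 of the 8 genes the −Met+Hcy libraries were all above the +Met libraries, as in 24.7% of all genes (24.9% among the genes tested without that library). The median log2 fold change of the 8 was 0.87 against 0.03 over all genes tested. These counts and the median hold ID2 and SNAI2, which were chosen by their rise in R1 cells. R1 is a clone of this line and had the same change of medium, so the 8 are not an unselected set. With all libraries no other member was called.

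ID2 (chr2:8678845-8684461, GRCh38) is the ID gene with the highest level in these cells. It was at 141, 137 and 153 CPM in the 3 HEK293T +Met libraries and at 353, 387 and 455 CPM in −Met+Hcy. The lowest −Met+Hcy library, at 353 CPM, lay far above the highest +Met library, at 153 CPM. The log2 fold change was 1.18 ± 0.238 (SE; edgeR's quasi-likelihood test, adjusted p = 0.0129, and 0.00154 without R1 −Met+Hcy replicate 3). The call was lost when any 1 HEK293T +Met library, or HEK293T −Met+Hcy replicate 2 or 3, was left out of the 12, with log2 fold changes of 1.05 to 1.24 and adjusted p-values of 0.0516 to 0.0645.

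ID1 (chr20:31605283-31606515) was at 33, 42.1 and 32.6 CPM in HEK293T +Met and at 64.7, 66.4 and 71.3 CPM in −Met+Hcy. ID3 (chr1:23557926-23559501) was at 37.3, 27.7 and 39.1 CPM, against 69.1, 75.1 and 87.6 CPM. ID4 (chr6:19837370-19842197) was at 20.1, 18.8 and 16.8 CPM, against 46.6, 42.3 and 37.4 CPM. In each of the 3 genes every −Met+Hcy library exceeded every +Met library. The log2 fold changes were 0.62 ± 0.556 for ID1, 0.86 ± 0.579 for ID3 and 0.88 ± 0.408 for ID4 (SE), and with all 12 libraries none passed the test, with edgeR adjusted p-values of 0.555, 0.411 and 0.226. Without R1 −Met+Hcy replicate 3 the fold changes were the same to 2 decimals, the standard errors fell to 0.137, 0.220 and 0.133, and the adjusted p-values were 0.0056, 0.0124 and 0.000577. The 3 genes were then past the threshold on p but not past a log2 fold change of 1. By p alone, 2 of the 8 members were higher with all libraries and 6 of the 8 without that one, against 4.25% and 15.2% of all genes tested.

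SNAI2 (chr8:48917598-48921740) is the SNAI gene that these cells express. It was at 79.4, 78.8 and 77.6 CPM in HEK293T +Met and at 253, 263 and 263 CPM in −Met+Hcy. Within each group its libraries differed by a few percent. The log2 fold change was 1.43 ± 0.388 (SE; edgeR adjusted p = 0.0462, and 2.34e-05 without R1 −Met+Hcy replicate 3). Of the single libraries, leaving out any HEK293T library or any R1 +Met library ended the call, with log2 fold changes of 1.40 to 1.48 and adjusted p-values of 0.0561 to 0.150. SNAI1 (chr20:49982980-49988886) was close to the detection limit, with 6, 5 and 13 counts in HEK293T +Met and 23, 28 and 22 counts in −Met+Hcy. Its log2 fold change was 1.32 ± 0.939 (SE) with an adjusted p of 0.442, and of 0.0435 without R1 −Met+Hcy replicate 3.

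SMAD7 (chr18:48919853-48950965), which draws ubiquitin ligases to the receptors, was at 16.1, 19.2 and 15.2 CPM in HEK293T +Met and at 37.2, 29.4 and 26.1 CPM in −Met+Hcy. The groups were separate, but the log2 fold change of 0.57 ± 0.350 (SE) did not pass the test (edgeR adjusted p = 0.361, and 0.0511 without R1 −Met+Hcy replicate 3). SMAD6 (chr15:66702236-66782849), which acts mainly on BMP signalling, was at 29.7, 27.2 and 23.0 CPM, against 39.1, 28.5 and 23.5 CPM. Its groups overlapped, and its log2 fold change of −0.12 ± 0.321 (SE) was not past the test (adjusted p = 0.872, and 0.615 without that library). Its sign depended on the scaling, as the ratio of the mean CPM by column totals was 0.19 on the log2 scale. It also depended on 1 library, since without HEK293T −Met+Hcy replicate 3 the log2 fold change was 0.02.

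**Figure D2:**
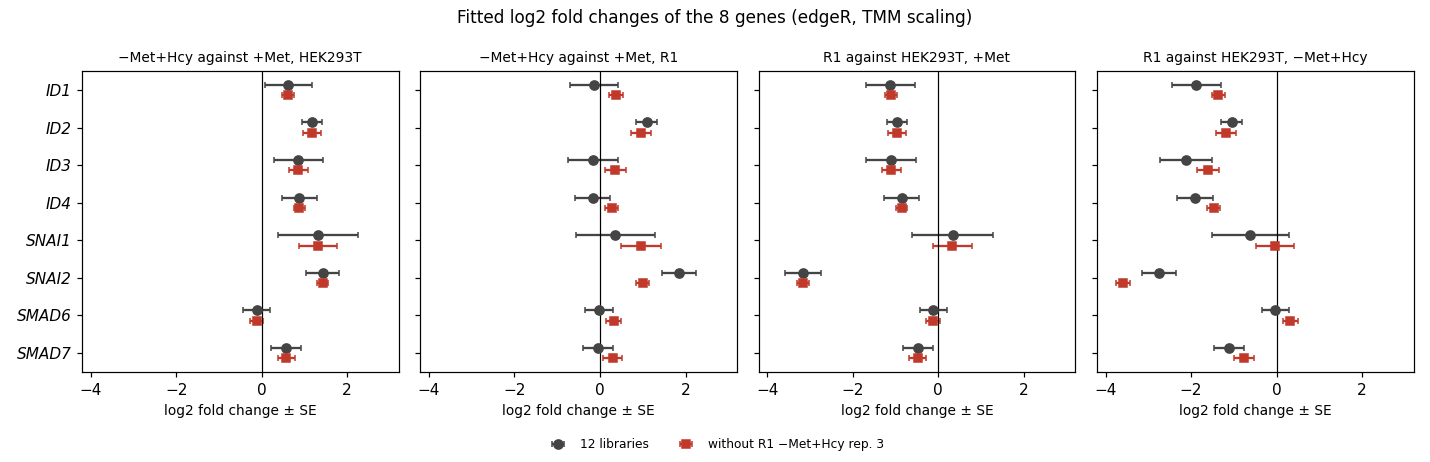
Log2 fold change of each of the 8 genes (horizontal axes; bars are the standard error of the edgeR model) in 4 comparisons (panels), with all 12 libraries (grey circles) and without R1 −Met+Hcy replicate 3 (red squares). In HEK293T cells ID2, at 1.18, and SNAI2, at 1.43, are the called genes, and in −Met+Hcy the fold change of SNAI2 between R1 and HEK293T cells is −2.75 with the library and −3.60 without it.

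The same change of medium in R1 cells is described without a test for the members. It gave 1 called gene among all 17162 (0.00583%) with all libraries, 3 (0.0176%) without R1 −Met+Hcy replicate 3, and none of them was a member. At an unadjusted p under 0.05, 974 genes were higher and 362 lower with all libraries, and DESeq2 called 28 genes at the same thresholds. SNAI2, from which the choice started, was at 9.92, 11.7 and 11.9 CPM in R1 +Met and at 24.5, 21.5 and 65.5 CPM in −Met+Hcy, the last value being that of replicate 3. Its log2 fold change was 1.85 ± 0.399 (SE) and was 1.00 ± 0.145 without that library. ID2 was at 91.6, 113 and 76.4 CPM in +Met and at 232, 147 and 201 CPM in −Met+Hcy, with a log2 fold change of 1.09 ± 0.237 (SE) and of 0.96 ± 0.229 without the library. Replicate 3 was thus the highest of its group for SNAI2 and lay between the other 2 for ID2.

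The other ID genes were low in the library that stood apart. ID1 was at 22.2, 22.2 and 18.7 CPM in R1 +Met and at 29.7, 26.7 and 2.13 CPM in −Met+Hcy. ID3 was at 20.9, 24.2 and 17.1 CPM, against 34.0, 21.2 and 2.13 CPM. ID4 was at 13.2, 14.2 and 11.7 CPM, against 15.9, 16.6 and 2.93 CPM. Replicates 1 and 2 were above all 3 +Met libraries for ID1 and ID4, and replicate 3 was several-fold below them for all 3 genes. The log2 fold changes were −0.14, −0.16 and −0.17 with that library and 0.38, 0.36 and 0.27 without it.

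SNAI1 had 15, 11 and 13 counts in R1 +Met and 29, 18 and 0 counts in −Met+Hcy. The 0 of 18771349 counts in replicate 3 allows up to 3 counts, by counting error alone. SMAD6 was at 31.6, 31.1 and 31.3 CPM, against 40.4, 40.2 and 12.3 CPM, and SMAD7 at 17.8, 10.05 and 18.6 CPM, against 17.6, 21.3 and 5.81 CPM. For these 3 genes too replicate 3 was the lowest of the 6 R1 libraries. Their log2 fold changes moved from 0.36, −0.03 and −0.05 to 0.95, 0.32 and 0.30 without it.

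Set against the mean of replicates 1 and 2, R1 −Met+Hcy replicate 3 was lower by 3.44 for ID1 and 3.40 for ID3 on the log2 scale, as far down as 2.90% and 2.94% of the 11641 genes compared, and by 2.19 for ID4 (8.25%). SNAI2 was 1.77 higher, above 98.8% of genes, and ID2 0.35 higher, above 63.8%. SNAI1, at 0 counts, would have had 31.0 counts at the mean level of the other 2 libraries. The trend of this library with GC content and length gave −0.96 for ID1, −0.81 for ID3, 0.48 for ID4, 0.58 for SNAI2 and 0.59 for ID2. The canonical transcripts of ID1, ID3, SNAI1, SMAD6 and SMAD7 have 56.7 to 58.8% GC, and those of ID2, ID4 and SNAI2 have 41.2 to 42.5%, against a median of 49.0% over the genes tested. ID4 thus has the low GC content of ID2 and SNAI2 and was low in the library, against the direction of its trend. SMAD6 and SMAD7, at −1.45 and −1.47, were near the trend's −1.37 and −1.12.

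**Figure D3:**
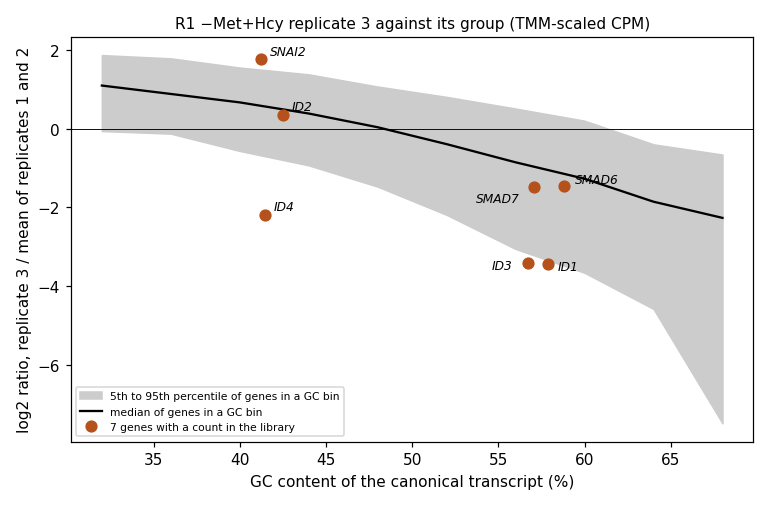
Log2 ratio of R1 −Met+Hcy replicate 3 to the mean of replicates 1 and 2 (vertical axis, TMM-scaled CPM) against the GC content of the canonical transcript in percent (horizontal axis). The line is the median and the grey band the 5th to 95th percentile of genes in each GC bin, and points are the 7 genes with a count in that library. ID1, at −3.44, ID3, at −3.40, and ID4, at −2.19, lie below the band and SNAI2, at 1.77, above it, while SMAD6 and SMAD7 lie near the line.

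The difference between the 2 medium responses contains the R1 response and is likewise a description. Without R1 −Met+Hcy replicate 3, the log2 fold change in R1 minus that in HEK293T cells was above 0 for SMAD6 alone of the 8, and with all libraries for SNAI2 and SMAD6. Of all genes, 1.38% were called for this difference without that library and 0.0583% with it. Without that library it ran from −0.61 for ID4 to −0.22 for ID2, and for SMAD6 it was 0.44. With it the difference ran from −1.05 for ID4 to 0.42 for SNAI2. For ID2 it was −0.09 ± 0.332 (SE) with all libraries and −0.22 ± 0.312 without that one.

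The next comparisons set R1 against HEK293T cells in the same medium, which tells how the clone differs from its parent. In +Met, SNAI2 was at 11.2 ± 1.11 CPM (SD, n = 3) in R1 against 78.6 ± 0.953 CPM in HEK293T cells, a log2 fold change of −3.16 ± 0.418 (SE), or 0.112-fold, and of −3.16 ± 0.138 without R1 −Met+Hcy replicate 3. ID2 was at 93.8 ± 18.5 against 143 ± 8.24 CPM (log2 fold change −0.96 ± 0.237, and the same without that library). With the trend on GC content and length removed from each library, the log2 fold change was −2.92 for SNAI2 and −0.54 for ID2. The R1 libraries were below all HEK293T libraries for both genes, and since R1 libraries chose them, no test is given. Of all genes tested, 2.95% were called lower in R1 (5.28% without that library).

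Among the 6 members tested in +Met, none was called with all 12 libraries. ID1 was at 21.0 ± 2.00 CPM in R1 against 35.9 ± 5.37 CPM in HEK293T cells (SD, n = 3), with a log2 fold change of −1.12 ± 0.563 (SE) and an edgeR adjusted p of 0.233. ID3 was at 20.7 ± 3.59 against 34.7 ± 6.11 CPM, with −1.10 ± 0.586 and 0.261. Without R1 −Met+Hcy replicate 3 both fell, with the same fold changes and adjusted p-values of 0.000137 and 0.00311. With the trend on GC content and length removed from each library, the log2 fold changes were −0.81 for ID1 and −0.74 for ID3. They were the same without R1 −Met+Hcy replicate 3. Both genes were then past the threshold on p (edgeR adjusted p = 0.00099 and 0.000655) but not past 1, so neither was called. ID4, at 13.03 ± 1.26 against 18.6 ± 1.67 CPM, had a log2 fold change of −0.86, past the threshold on p without that library (adjusted p = 0.000615) but not past 1. The R1 libraries of ID1, ID3 and ID4 did not overlap those of HEK293T cells. On the TMM scale R1 was lower without overlap for 4 of the 6 members tested, all but SNAI1 and SMAD6, against 20.7% of all genes (20.8% among the genes tested without that library).

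SNAI1 and the inhibitory SMADs passed no test in +Met with or without that library. SNAI1 had 11 to 15 counts in R1 and 5 to 13 in HEK293T cells, with a log2 fold change of 0.34 ± 0.947 (SE). SMAD7 was at 15.5 ± 4.71 against 16.9 ± 2.10 CPM (SD, n = 3), with −0.48 ± 0.352. SMAD6 was at 31.3 ± 0.245 against 26.6 ± 3.39 CPM and gave different answers on the 2 scales. By column totals its R1 libraries were all above its HEK293T libraries, 1.18-fold in the mean, whereas the TMM-scaled log2 fold change was −0.12 ± 0.321 and the groups overlapped.

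In −Met+Hcy, ID1, ID3 and ID4 were lower in R1 cells, and all 3 were called with and without R1 −Met+Hcy replicate 3, where 4.66% and 6.44% of all genes were called lower. ID1 was at 29.7, 26.7 and 2.13 CPM in R1 against 67.4 ± 3.43 CPM in HEK293T cells (SD, n = 3), with a log2 fold change of −1.88 ± 0.574 (SE; edgeR adjusted p = 0.0476) and of −1.36 without that library. For ID3 the fold change was −2.12 ± 0.601 (adjusted p = 0.0354) and −1.60 without the library. For ID4 it was −1.91 ± 0.420 (adjusted p = 0.0109) and −1.47 without it. R1 replicates 1 and 2 were at 21.2 to 34.0 CPM for ID1 and ID3, and the HEK293T libraries at 64.7 to 87.6 CPM. Of the 6 members tested, 4, all but SNAI1 and SMAD6, had every R1 library below every HEK293T library, against 18.9% of all genes (27.6% without that library). The calls of ID1 and ID3 were lost when single other libraries were left out: for ID1 any of the other libraries but R1 −Met+Hcy replicate 1 (adjusted p-values of 0.0607 to 0.122), and for ID3 the same but for R1 +Met replicate 2 as well (0.0504 to 0.103).

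ID2 and SNAI2 in −Met+Hcy are again given without a test. ID2 was at 193 ± 43.0 CPM in R1 and 398 ± 51.8 CPM in HEK293T cells (SD, n = 3), with a log2 fold change of −1.06 ± 0.237 (SE) and of −1.18 without R1 −Met+Hcy replicate 3. SNAI2 was at 37.2 ± 24.6 and 23.0 CPM with and without that library, against 260 ± 5.40 CPM, with log2 fold changes of −2.75 ± 0.406 and −3.60 ± 0.164. In R1 cells in −Met+Hcy, SNAI2 was therefore still below its level in HEK293T cells in +Met, in each library, whereas ID2 was not. SMAD7 was at 14.9 ± 8.11 against 30.9 ± 5.70 CPM, a log2 fold change of −1.11 ± 0.353 that missed the threshold on p (adjusted p = 0.0564). Without the library it was −0.76, with an adjusted p of 0.0244. Of the 22 alternatives, 5 called SMAD7 lower here and 17 did not. Those that did include DESeq2 on all 12 libraries (−1.11, adjusted p = 0.0165). They also include edgeR with the trend on GC content and length removed (−1.03, adjusted p = 0.00251). SNAI1 (−0.62 ± 0.905, and −0.03 without the library) and SMAD6 (−0.03 ± 0.321, and 0.32 without it) did not pass the test.

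The signalling genes around the members were read from 12 lists of 105 genes, 94 of them tested. In the HEK293T response 8 of the 94 were higher and 1 lower, and without R1 −Met+Hcy replicate 3 there were 15 and 4, against the 3.04% and 6.76% of all genes called higher given above and the 1.59% and 3.56% called lower. All 9 genes called with all libraries were also called without that one, as were all 7 between the lines in +Met and all 11 in −Met+Hcy. The median log2 fold change of the 94 was 0.38. Among ligands, BMP4 was at 9.08 ± 0.574 CPM with methionine and 25.6 ± 4.11 CPM with homocysteine (3 libraries each, SD), a rise of 1.20 ± 0.202 on the log2 scale (edgeR adjusted p = 0.00584). The activin-family subunit INHBE had 3, 1 and 1 counts in +Met and 93, 113 and 82 counts in −Met+Hcy and was called (adjusted p = 0.00584). BMP2, at 18.1 ± 0.982 and 12.97 ± 1.78 CPM, was not (log2 fold change −0.78, adjusted p = 0.0544), and neither were the 2 further BMP ligands with the highest levels, BMP7 (−0.72) and BMP6 (−0.90), nor GDF11 and GDF1.

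None of the 7 type I receptors, 5 type II receptors, 4 tested co-receptors and 6 receptor-regulated and common SMADs was called in the HEK293T response, with or without that library. Since 3.04% of all genes were called higher and 1.59% lower, 0 of so few genes is near the background. The type I receptors BMPR1A (0.34 ± 0.271) and TGFBR1 (0.03 ± 0.208), the type II receptors BMPR2 (−0.14 ± 0.307) and ACVR2A (0.57 ± 0.232), and the co-receptors TGFBR3 (0.09 ± 0.296) and RGMB (0.18 ± 0.219) are those with the highest levels (log2 fold change ± SE). SMAD5, which carries BMP signals, had 0.69 ± 0.294 and SMAD2, which carries TGF-β signals, −0.19 ± 0.277. The 13 antagonists and the 9 inhibitors inside the cell or at its membrane, likewise few, had no call with all libraries either. SKIL, a repressor of SMAD activity, was past the threshold on p with a log2 fold change of 0.91 ± 0.229 (adjusted p = 0.0346), and the ubiquitin ligase SMURF2 was at 0.40. Of the secreted antagonists with the highest levels, TWSG1 was at −0.10 and NBL1 at −0.63.

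Of 13 other target genes tested, 5 rose in HEK293T cells and none fell, where 3.04% of all genes were called higher and 1.59% lower. KLF10, an early TGF-β response gene, was at 20.9 ± 2.07 CPM with methionine and 111 ± 3.54 CPM with homocysteine (3 libraries each, SD) and had a log2 fold change of 2.11 ± 0.254 (SE; edgeR adjusted p = 0.00115). HEY1, a Notch and BMP target, was at 185 ± 8.51 and 658 ± 39.7 CPM (1.54, adjusted p = 0.00297). MSX2, a homeobox gene induced by BMP, was at 23.4 ± 1.64 and 61.5 ± 5.04 CPM (1.10, adjusted p = 0.00716). CCN2, which encodes connective tissue growth factor, and the cell cycle inhibitor CDKN2B rose by 1.04 and 1.47 on the log2 scale (adjusted p = 0.0201 and 0.0195). FN1 (0.62), GATA2 (−0.39) and MSX1 (−0.20) did not pass the test. In R1 cells edgeR called none of the 94, with or without R1 −Met+Hcy replicate 3, DESeq2 called 1, and the counts over all genes at an unadjusted p are those given above. KLF10 was at 23.7, 23.3 and 29.0 CPM in R1 +Met and 33.2, 36.0 and 56.1 CPM in −Met+Hcy. The difference of the 2 responses passed the test for none of the 94 with all libraries and for KLF10 and TGFB3 without that library, KLF10 by −1.70 ± 0.188 (adjusted p = 0.00204) and TGFB3, named after its values were seen, by −1.47 ± 0.303 (adjusted p = 0.0331).

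**Figure D4:**
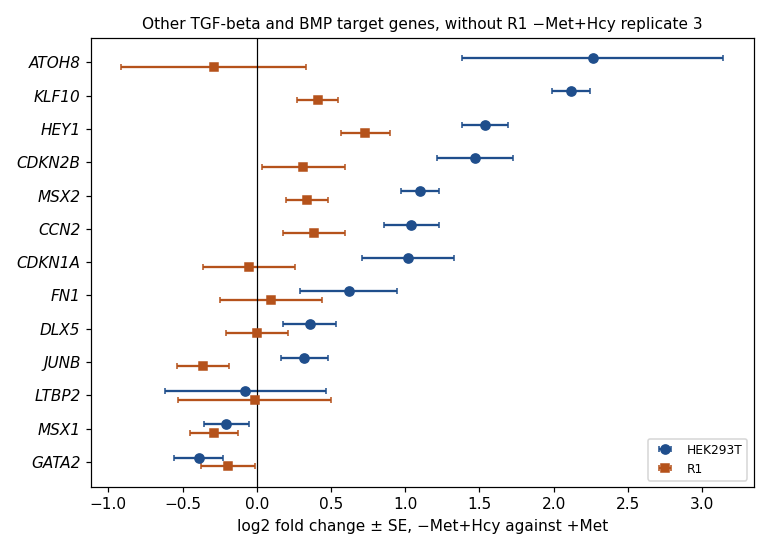
Log2 fold change of −Met+Hcy against +Met (horizontal axis; bars are the standard error of the edgeR model) of the 13 other target genes tested, in HEK293T (blue circles) and R1 cells (orange squares), without R1 −Met+Hcy replicate 3. KLF10 is at 2.11 in HEK293T and 0.41 in R1 cells, and it is the one gene of this list whose responses differed past the threshold.

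The partners and targets of the members' proteins were read in the same way. The E proteins bound by ID proteins, TCF3, TCF4 and TCF12, were not called in any comparison. In the HEK293T response TCF3 had a log2 fold change of −0.77 ± 0.382 and TCF4 of 0.06 ± 0.150 (SE). Of 7 tested genes repressed by SNAI factors or marking mesenchymal cells, CDH1, the epithelial cadherin, was higher, with 3, 3 and 9 counts in +Met and 43, 43 and 34 counts in −Met+Hcy (log2 fold change 2.70 ± 0.557, edgeR adjusted p = 0.0145). VIM, the mesenchymal filament vimentin, was lower, at 699 ± 50.3 and 337 ± 29.0 CPM (SD, n = 3; −1.35 ± 0.201, adjusted p = 0.00323). VIM is also on the list of HEK293T markers and makes up most of that list's sum. The mesenchymal regulators ZEB1 (0.72 ± 0.291) and ZEB2 (0.49 ± 0.365) did not pass the test.

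Between the lines, 5 of the 94 list genes were called higher and 2 lower in R1 cells in +Met (11 and 3 without R1 −Met+Hcy replicate 3), and 5 and 6 in −Met+Hcy (8 and 10). Of all genes, 4.71% and 5.29% were called higher in the 2 media (8.97% and 8.63% without that library). The shares called lower were 2.95% and 4.66% (5.28% and 6.44% without it). With all libraries the counts of list genes are near these shares. TGFB1, a ligand of TGF-β receptors, was at 62.7 ± 8.24 CPM in R1 and 5.48 ± 1.04 CPM in HEK293T cells in +Met (SD, n = 3), 3.16 ± 0.287 higher on the log2 scale (edgeR adjusted p = 8.87e-05), and 3.31 ± 0.292 higher in −Met+Hcy. BMP2, at 5.26 ± 0.330 against 18.1 ± 0.982 CPM in +Met, was 2.14 lower (log2 fold change −2.14 ± 0.232, adjusted p = 0.0003) and −1.51 in −Met+Hcy. The myostatin gene MSTN had 0, 0 and 2 counts in R1 +Met against 9, 7 and 14 in HEK293T +Met (adjusted p = 0.0459).

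Of the genes that SNAI factors repress or that mark mesenchymal cells, CDH1 (2.25 ± 0.556), the tight junction gene OCLN (1.99 ± 0.347) and the neural cadherin CDH2 (1.68 ± 0.224) were higher in R1 cells in +Met, and OCLN (2.50), CDH2 (1.55) and the cell adhesion gene EPCAM (3.18) in −Met+Hcy. EPCAM had 49, 10 and 123 counts in R1 −Met+Hcy against 8, 7 and 4 in HEK293T −Met+Hcy, and without R1 −Met+Hcy replicate 3, the highest, its log2 fold change was 2.24. CLDN7, with at most 21 counts in a library, and ESRP1, with at most 5, were not called. FN1, which encodes the matrix protein fibronectin, was higher in both media (2.13 and 1.52). These include both epithelial genes, such as CDH1 and OCLN, and mesenchymal ones, such as CDH2 and FN1. The mesenchymal gene VIM was not called between the lines in either medium. By column totals it was at 731 ± 130 CPM in R1 and 699 ± 50.3 CPM in HEK293T cells in +Met (SD, n = 3). The target genes CCN2 (−1.17), KLF10 (−1.39), HEY1 (−1.26) and MSX2 (−1.38) were called lower in R1 cells in −Met+Hcy and in +Met were not called (−0.59, −0.08, −0.25 and −0.45). INHBE was also lower there, with 3, 0 and 0 counts in R1 against 93, 113 and 82 in HEK293T cells. The comparisons in −Met+Hcy share their HEK293T libraries with the HEK293T response, so a gene high in those libraries enters both.

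Over the 12 libraries, the genes most like ID2 by Pearson's correlation of log2 CPM, among the 11487 genes whose mean reached 5 CPM, were ZNF22 (r = 0.98), SETD9 (0.98) and WTAP (0.97). Without R1 −Met+Hcy replicate 3 they were COMMD3-BMI1, TMEM216 and WTAP (0.99 each). WTAP was at 157 ± 7.97 CPM in HEK293T +Met, 349 ± 26.8 in HEK293T −Met+Hcy, 113 ± 26.2 in R1 +Met and 204 ± 49.98 CPM in R1 −Met+Hcy (SD, n = 3), the same order of groups as ID2. For SNAI2 the genes were BEX4 (0.99), SLC35G1 (0.99) and CUL1 (0.98), and without that library BEX4, SLC35G1 and MYC (0.99 each). BEX4 was at 45.6 ± 4.58, 69.4 ± 4.26, 19.7 ± 0.619 and 28.8 ± 8.60 CPM in the same groups. These libraries form 4 groups, share the scaling and were searched for the highest values, so the correlations describe likeness of pattern alone. COMMD3-BMI1 is a read-through gene whose transcripts share sequence with its neighbours.

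Among the members, and without R1 −Met+Hcy replicate 3, Pearson's r over 11 libraries was 0.85 to 0.96 for each pair of ID1, ID2, ID3, ID4 and SNAI2. It was 0.64 to 0.81 for SMAD7 with these 5 and −0.35 to −0.07 for SMAD6 with them. With that library included, r was 0.39 for ID1 with ID2 and 0.98 for ID1 with ID3. These values too are over 4 groups that share their media and lines.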

How the data were processed

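Total RNA from HEK293T and R1 cells was sequenced in 12 libraries, 3 per group. The authors quantified reads with kallisto 0.48.0 with GRCh38 as reference and deposited estimated counts, summed per Ensembl gene and turned into whole numbers, without scaling. The R1 libraries carry R1 in their titles and HEK293T as cell line, and the titles were followed. The breast lines of the study were not analysed here.

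Genes with a summed count under 10 were left out. One model with a mean per group was fitted by edgeR 4.0.16 (R 4.3.3; TMM scaling, quasi-likelihood test, 8 residual degrees of freedom), Benjamini-Hochberg adjustment ran over the 17162 tested, and calls needed an adjusted p under 0.05 with an absolute log2 fold change over 1. Coordinates, lengths and GC content come from GENCODE on GRCh38, with GC content for 92.4% of genes tested. The 868 entries without a symbol were kept. The procedure was tested on simulated data. These were drawn with the spread fitted without R1 −Met+Hcy replicate 3 and held no library with a trend on GC content. They therefore do not cover a library that stands apart.

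The members, the lists and the tests were chosen with earlier results of these data known. Named list genes are those called in any comparison and, per list, up to 2 further genes with the highest mean CPM. For ID2 and SNAI2, the 3 most similar genes with and without R1 −Met+Hcy replicate 3 were named. Alternatives numbered 22: RLE scaling, 2 filters, DESeq2 1.42.0, edgeR on 6 libraries, the replicate number as a block, the adjusted p alone, each library left out, and 3 added after seeing the data (trend with GC content and length removed by loess with a span of 0.3, and this or DESeq2 with R1 −Met+Hcy replicate 3 left out).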

Additional observations from a re-analysis of the deposited data

How the results depend on the processing

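The 22 alternatives kept most tested fold changes of the members in direction and on their side of the threshold, and most untested ones within the spread. Of their values, 798 did so, 39 lost a call and 16 gained one. A further 13 without a test moved by more than the spread, and 6 with a test reversed. Changes of sign without a test were not counted as reversals. In the R1 response, ID1, ID3, ID4, SMAD6 and SMAD7 were at −0.14, −0.16, −0.17, −0.03 and −0.05 with all libraries. They were at 0.38, 0.36, 0.27, 0.32 and 0.30 without R1 −Met+Hcy replicate 3. All 6 reversals counted were SMAD6. Its log2 fold change between R1 and HEK293T cells in −Met+Hcy, −0.240 to 0.316 with single libraries left out, became 0.157 without HEK293T −Met+Hcy replicate 1, 0.316 without replicate 3 of R1 −Met+Hcy, 0.0849 with the trend on GC content and length removed, 0.113 with this and that library left out and 0.309 by DESeq2 without it, and its HEK293T response, −0.301 to 0.0242 with single libraries left out, was highest without HEK293T −Met+Hcy replicate 3. The cause was not tested.

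With single libraries left out, the members called ranged from 0 to 3 in the HEK293T response (2 with all), from 1 to 3 between lines in +Met (1), from 2 to 5 in −Met+Hcy (5), and were 0 in the R1 response; these counts hold ID2 and SNAI2, for which no test is given where R1 libraries are compared. The list genes called ranged from 6 to 19 (9 with all), 5 to 14 (7), 9 to 18 (11) and 0 to 0, and from 0 to 2 for the difference of responses (0). The upper ends for list genes came without R1 −Met+Hcy replicate 3. Of all 17025 to 17105 genes then tested, 268 to 1762 were called in the HEK293T response. Between lines 594 to 2433 were called in +Met and 950 to 2573 in −Met+Hcy. The R1 response had 0 to 3 and the difference 0 to 236. DESeq2 on all 12 libraries put 28 of all 17162 genes past the thresholds in the R1 response. These included 1 list gene and 2 members, ID2 and SNAI2, which were chosen by that rise, so that this is no test of it. A fit on only the 6 libraries of a comparison called 20 list genes in the HEK293T response, 3 members and 16 list genes between lines in +Met, and 1 member and 5 list genes in −Met+Hcy. Over all genes, that fit called 1899 of 16275, 2332 of 16201 and 491 of 16523 in the same 3 comparisons. By adjusted p alone 2 members were called between lines in +Met, as were 1745 of all 17162 genes. With the trend removed, 1 list gene was called for the difference of responses (175 of all 17162 genes). With R1 −Met+Hcy replicate 3 also left out, 4 members and 16 list genes were called in the HEK293T response (1784 of all 17069 genes). Between lines 17 list genes were called in either medium (2183 of all genes in +Met and 2417 in −Met+Hcy), and 2 for the difference (502). DESeq2 without that library called 20 list genes in the HEK293T response (1802 of all 17069 genes). Between lines it called 3 members and 17 list genes in +Met (2503 of all genes) and 18 list genes in −Met+Hcy (2649). For the difference it called 2 list genes (486).

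Libraries with the same replicate number deviated together in some pairs of groups and in opposite directions in others (correlations of −0.72 to 0.60). Deviations from a mean of 3 libraries depend on each other, so these values cannot tell whether the number pairs the libraries. With the replicate number as a block, 1 member, ID2, was called by edgeR in the HEK293T response (SNAI2 adjusted p = 0.0561), as were 517 of all 17162 genes. Between lines in −Met+Hcy 3 members, ID2, ID4 and SNAI2, were called, as were 1358 of all genes. Depth limits SNAI1, at 0 to 29 counts, most.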

Other observations

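Several further list genes, named here after their values were seen, were called in edgeR only when R1 −Met+Hcy replicate 3 was left out. In the HEK293T response TGFB3, a TGF-β ligand, rose from 2.97 ± 0.618 to 12.5 ± 1.13 CPM (SD, n = 3), with a log2 fold change of 1.78 (adjusted p = 0.0897 with all libraries and 0.000117 without that one). The related TGFB2 had 9, 16 and 8 counts against 49, 57 and 45 (1.89, adjusted p = 0.0392 without it). The cell cycle inhibitor CDKN1A was at 1.02 (adjusted p = 0.0281 without it). In the same comparison BMP8B (−1.24), GDF1 (−1.10) and TWIST2 (−1.04) were lower without it.

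Between the lines, CHRD, which encodes the BMP antagonist chordin, was at 1.97 ± 0.242 CPM in HEK293T and 8.08 ± 0.861 CPM in R1 cells in +Met (SD, n = 3), with a log2 fold change of 1.67 and an edgeR adjusted p of 0.000235 without that library. In −Met+Hcy it was 1.57 (adjusted p = 0.000415 without it). The co-receptor gene RGMA was 1.54 higher in R1 cells in −Met+Hcy (adjusted p = 0.000255 without it). The activin antagonist FST had 23, 13 and 12 counts in R1 +Met, against 4, 2 and 2 in HEK293T +Met (adjusted p = 0.0202 without it).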
